A study of Mus musculus with 12 samples.

Results

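The genes described were 10 regulators of DNA methylation and Polycomb repression: the DNA methyltransferase genes Dnmt1, Dnmt3a and Dnmt3b, the 5-methylcytosine oxidase genes Tet2 and Tet3, the Polycomb repressive complex 2 (PRC2) genes Ezh1, Ezh2 and Eed, the Polycomb repressive complex 1 (PRC1) gene Bmi1, and Asxl1. They were chosen by name. Every probe set whose only annotated gene symbol was one of these 10 was taken, which gave 25 probe sets, 18 on the array design MOE430A and 7 on MOE430B. The designs named 12394 genes on MOE430A and 9611 on MOE430B in this way, over 22626 and 22511 probe sets that were not controls.

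The samples were mouse bone marrow stem cells separated by flow cytometry into cells with (CD49+) and without (CD49-) surface CD49, the name of the integrin alpha chains, and there were 3 CD49+ and 3 CD49- samples. Every sample came from about 30 cells with an estimated purity of 97.03%, held in IBSS medium with 7% FBS and taken 0 h after sorting. The cells were lysed, the RNA was amplified by PCR, and 100 ul of cDNA at 0.1 ug/ul was handed in, of which each sample was hybridised to an Affymetrix MOE430A and an Affymetrix MOE430B array, 12 arrays in all. In each group sample 1 carried the title prefix MZ1484 and samples 2 and 3 the prefix MZ1468, and this prefix is called the submission. On each design the arrays were scanned on 2 days, and 0 of these days held both submissions, so submission and scan day cannot be told apart. The sources used here name neither the stained alpha chain nor the strain, age and sex of the mice. The labels leave unsaid whether the 3 samples of each group are separate animals or separate sorts, so a p-value here speaks of sample-to-sample spread that may be technical. In such bulk samples, fewer cells of a type and less RNA per cell cannot be told apart.

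Dnmt1 copies methylation onto newly made DNA strands, Dnmt3a and Dnmt3b place it on unmethylated sites, and Tet enzymes oxidise the methyl group and so start its removal. PRC2 methylates a lysine of histone H3 through Ezh1 or Ezh2, with Eed as the subunit that binds the finished mark, and PRC1, of which Bmi1 is a subunit, ubiquitinates a histone and compacts chromatin, while the Asxl1 protein belongs to the deubiquitinase complex PR-DUB that removes this ubiquitin. In blood, Dnmt3a, Tet2 and Asxl1 are known for mutations in clonal haematopoiesis, Bmi1 for the self-renewal of stem cells, and Dnmt1 and Ezh2 for high transcript levels in dividing cells, where Ezh1 is the form more often found in resting cells.

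The deposited values were linear signals, and the highest signal among the Bacillus control probe sets of an array, which match no mouse transcript, served as its background bound. This bound lay between 78.0 and 149 on MOE430A and between 844 and 1466 on MOE430B, and it was passed on MOE430A by 39.5% and 46.9% of the probe sets in the MZ1484 samples (CD49+, then CD49-), against 49.7% to 61.1% in the MZ1468 samples. On MOE430B it was passed by 18.8% and 25.5% in MZ1484, against 16.5% to 28.6% in MZ1468, which overlapped. The part of this lower share on MOE430A in the member values was not tested. The ratio of 3' to 5' signal of Actb, a sign of how far the amplified RNA was cut short, was 7.48 and 2.63 in the MZ1484 samples on MOE430A, against 8.83 to 19.8 in the MZ1468 samples, and the submissions overlapped in it on MOE430B. The same ratio for Gapdh was 1076 and 95.7 in MZ1484 on MOE430A, against 13.9 to 1146 in MZ1468, so the submissions overlapped in it. All 8 measured stem cell marker genes of a list of 10 were above the bound on at least 1 array. Of the 4 measured erythroid markers 2 were, Epor on 4 arrays and Klf1 on 1, and Hba-a1 and Car1 were above it on none. Among the integrin alpha genes Itga1 to Itga6, the genes behind CD49, no probe set differed between the CD49 groups by limma at an adjusted p of 0.05. Over all probe sets, limma called 0 differences between CD49+ and CD49- samples, with an unadjusted p under 0.05 for 272 of 11313 tested probe sets on MOE430A (2.4%) and 414 of 11256 on MOE430B (3.68%).

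Of the 25 member probe sets, 14 were tested, meaning that their mean log2 signal reached the median of their design, and they stood for 9 of the 10 genes. Because this filter uses the mean over all samples, a probe set that was bright in 1 group could pass through that group alone. The bound was exceeded on all 6 arrays by 6 probe sets, on 1 to 5 arrays by 11 and on none by 8, so that 8 genes had a signal above background somewhere. Tet2 and Tet3 had none. Levels are compared only within a probe set, since probe sets of different genes, and of the 2 designs, are not on a common scale.

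**Figure D1:**
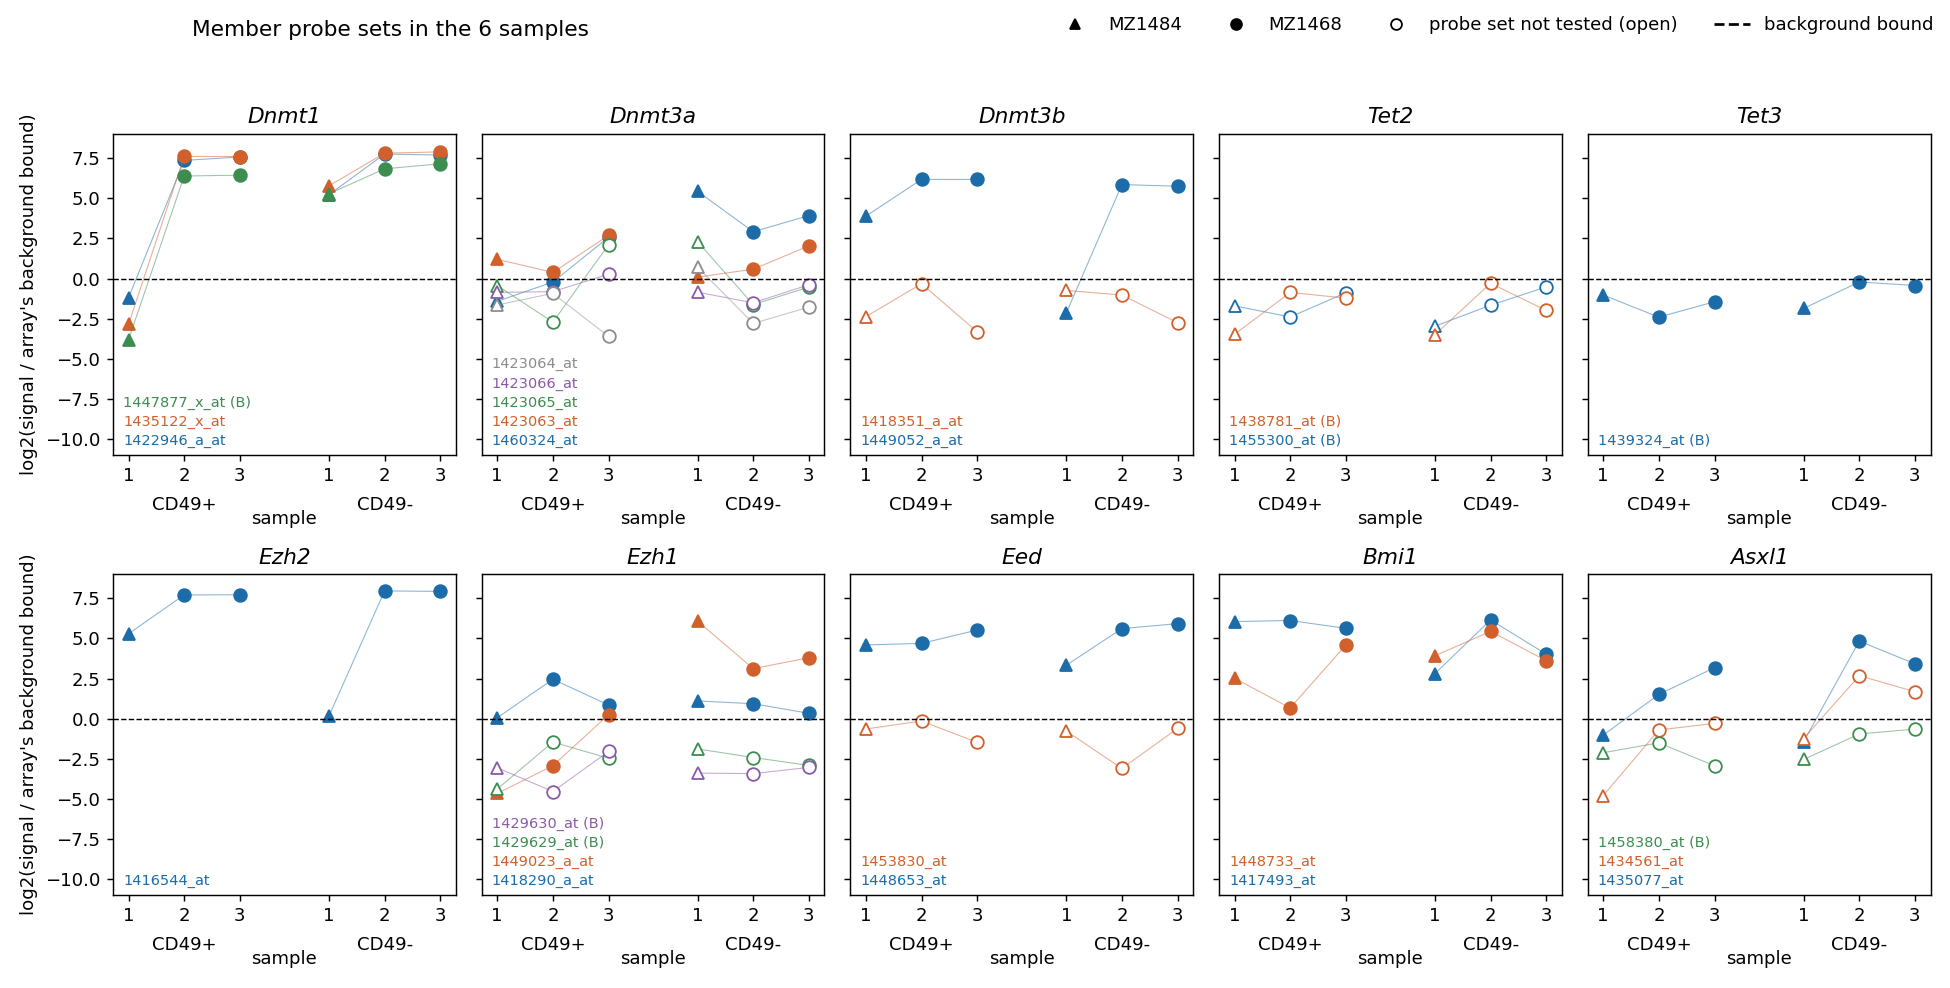
Each panel is 1 gene, the x axis gives samples 1 to 3 of CD49+ and then of CD49-, and the y axis gives log2 of the signal over the background bound of its array, with triangles for MZ1484, circles for MZ1468, open symbols for probe sets that were not tested, 1 colour per probe set and (B) for design MOE430B. Dnmt1, Ezh2 and the Dnmt3b probe set 1449052_a_at sat far above the dashed bound in all 4 MZ1468 samples. In MZ1484, 1 sample lay below it for Dnmt1 (CD49+) and for 1449052_a_at (CD49-), and just above it for Ezh2 (CD49-). The other Dnmt3b probe set, 1418351_a_at, passed it in no sample.

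Dnmt1 was bright in every MZ1468 sample and dimmer in both MZ1484 samples, and the CD49+ sample of MZ1484 stood apart from all the others. Its brightest probe set relative to background, 1422946_a_at, had signals of 64.9, 16594.5 and 16134 in the CD49+ samples 1, 2 and 3, against 3611, 17022 and 17111 in the CD49- samples 1, 2 and 3. CD49+ sample 1 was the only one under the bound of its array, and the CD49 groups overlapped. The CD49+ minus CD49- difference on the log2 scale was -1.81 ± 1.98 (SE, n = 3 each, limma adjusted p = 1.00), which was within the spread between samples.

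The CD49 difference of Dnmt1 was large in MZ1484 and close to 0 in MZ1468. It was -5.31 on the log2 scale in MZ1484, with 1 sample on each side, and -0.061 in MZ1468, with 2 on each side. The difference between these values, tested as the limma interaction of group and submission, was -5.25 ± 0.58 (SE, adjusted p = 0.0313). In that fit the residual spread comes from the 4 MZ1468 samples alone, and the lone MZ1484 sample of each group is assumed to vary like them. The call was lost with no filter on low signals (limma adjusted p = 0.0599) and without a variance trend (limma adjusted p = 0.107). Without CD49- sample 2 the adjusted p was 0.321, and without CD49- sample 3 it was 0.313.

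The other probe sets of Dnmt1 showed the same layout of samples. On MOE430A, 1435122_x_at had 20.6, 19705 and 16477.5 in the CD49+ samples, against 5301, 17671 and 19618 in the CD49- samples, with an interaction of -6.76 ± 0.60 (SE, limma adjusted p = 0.0241). On MOE430B, 1447877_x_at had 85.4, 123643 and 115360 in the CD49+ samples, against 33006, 132204 and 121719 in the CD49- samples, with an interaction of -7.11 ± 0.70 (SE, limma adjusted p = 0.130). All 3 probe sets were under the bound in CD49+ sample 1 only, and all MZ1484 signals were lower than all MZ1468 signals. The suffix _x_at marks probe sets whose probes can also match other transcripts, so these signals are less certain than that of 1422946_a_at.

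The promoter windows of Dnmt1, Ezh2, Ezh1 and Dnmt3b are printed. Dnmt1 and Ezh2 held the probe sets with a called interaction, and Ezh1 and Dnmt3b are relatives without one in the same fit. Among the top 25% of signals the interaction of Dnmt3b 1449052_a_at was called (limma adjusted p = 0.0299). This probe set also shared the layout of Ezh2, lowest in CD49- sample 1 and lower in both MZ1484 samples than in all MZ1468 samples. Each window runs from 250 bases before to 50 bases after a RefSeq start site on GRCm38.p6 (300 bases in all, 5' to 3' on the gene's strand). They lie at chr9:20952574-20952873 (Dnmt1, minus strand, the third of its windows), chr6:47594981-47595280 (Ezh2, minus strand), chr11:101226414-101226713 (Ezh1, minus strand) and chr2:153649199-153649498 (Dnmt3b, plus strand). Capitals mark matches, on either strand, to an E2F word (TTTCGCGC, TTTGGCGC or TTTCCCGC), an NRF1 word (GCGCATGC), the CCAAT box (CCAAT) or the cell cycle homology region word (TTTGAA). In the Dnmt1 window matches of CCAAT on both strands overlap each other, and so do those of the NRF1 word.
Dnmt1: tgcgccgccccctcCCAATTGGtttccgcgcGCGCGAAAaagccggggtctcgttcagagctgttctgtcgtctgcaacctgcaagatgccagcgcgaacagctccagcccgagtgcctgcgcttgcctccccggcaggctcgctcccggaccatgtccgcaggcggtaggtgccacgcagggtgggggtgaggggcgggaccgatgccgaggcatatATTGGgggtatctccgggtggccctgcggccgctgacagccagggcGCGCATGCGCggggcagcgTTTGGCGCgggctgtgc
Ezh2: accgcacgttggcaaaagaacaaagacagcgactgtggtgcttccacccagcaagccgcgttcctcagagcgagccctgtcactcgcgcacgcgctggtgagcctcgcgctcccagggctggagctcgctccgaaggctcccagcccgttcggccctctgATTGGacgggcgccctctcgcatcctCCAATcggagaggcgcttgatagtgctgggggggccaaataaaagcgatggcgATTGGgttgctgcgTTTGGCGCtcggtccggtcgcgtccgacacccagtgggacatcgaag
Ezh1: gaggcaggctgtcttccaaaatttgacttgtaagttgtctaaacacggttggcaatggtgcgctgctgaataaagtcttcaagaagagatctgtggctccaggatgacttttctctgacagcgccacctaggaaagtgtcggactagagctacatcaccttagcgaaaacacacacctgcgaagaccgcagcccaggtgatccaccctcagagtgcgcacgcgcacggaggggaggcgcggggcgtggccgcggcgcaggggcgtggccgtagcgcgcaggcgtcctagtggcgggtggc
Dnmt3b: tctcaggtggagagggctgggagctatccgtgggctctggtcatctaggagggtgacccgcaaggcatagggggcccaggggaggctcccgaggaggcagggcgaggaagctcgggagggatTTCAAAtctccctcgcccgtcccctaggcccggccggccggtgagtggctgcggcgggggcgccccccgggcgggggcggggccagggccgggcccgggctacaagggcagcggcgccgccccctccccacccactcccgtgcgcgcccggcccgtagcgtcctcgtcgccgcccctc

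Of the 14 RefSeq windows of the 10 genes, an E2F word stood in 2, against 1.84% of all 32851 windows of the same length. These 2 are the Dnmt1 window above, with 2 words, and the Ezh2 window, with 1 word that begins at base 4 after the start. The Dnmt1 windows not printed held no E2F word. The NRF1 word was found in 2 of the 14, both of Dnmt1 (2.71% of all windows), CCAAT in 5 (37.4%) and TTTGAA in 4 (17.9%). The Ezh1 window held none of these words, and the Dnmt3b window held 1 TTTGAA. A match describes letters in a window and shows no binding.

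Dnmt3a, the de novo methyltransferase best known in blood stem cells, was lower in every CD49+ sample by 1 probe set and not by another. With 1460324_at, its brightest probe set relative to background, signals were 55.4, 86.0 and 501 in the CD49+ samples, against 4177, 590.0 and 1250.2 in the CD49- samples. The groups did not overlap, and 1 of 3 CD49+ arrays but 3 of 3 CD49- arrays exceeded the bound. The CD49+ minus CD49- difference was -3.13 ± 1.18 on the log2 scale (SE, n = 3 each, limma unadjusted p = 0.0317, adjusted p = 1.00), so it did not pass the threshold. It was -5.67 within MZ1484 and -1.86 within MZ1468, and the limma interaction was -3.81 ± 1.86 (SE, adjusted p = 0.339).

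The second tested Dnmt3a probe set had the opposite sign. 1423063_at gave 341, 131 and 543 in the CD49+ samples, against 102, 117 and 336 in the CD49- samples, and all 6 signals were above the bound. These groups overlapped, and the difference was 0.77 ± 0.79 (SE, n = 3 each, limma adjusted p = 1.00). The remaining 3 Dnmt3a probe sets were not tested: 1423065_at ranged from 15.2 to 472 and passed the bound on 2 arrays, 1423066_at from 27.3 to 101 on 1 array, and 1423064_at from 6.85 to 157 on 1 array. Their samples overlapped between the groups.

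Dnmt3b, the other de novo enzyme, resembled Dnmt1 in the MZ1468 samples and mirrored it in MZ1484. Probe set 1449052_a_at had 2208, 7302 and 6118 in the CD49+ samples, against 21.5, 4539 and 4446 in the CD49- samples. CD49- sample 1 was the only sample under the bound, and both MZ1484 signals were lower than all MZ1468 signals. The CD49+ minus CD49- difference was 2.22 ± 1.83 (SE, n = 3 each, limma adjusted p = 1.00), with 5.53 within MZ1484 and 0.57 within MZ1468. Its limma interaction of 4.96 ± 0.96 (SE) had an adjusted p of 0.0757 and was not called. The second probe set, 1418351_a_at, ranged from 8.36 to 79.8 and never passed the bound.

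Tet2 and Tet3, which open the path to removal of methylation, gave no signal above background. The Tet2 probe sets 1455300_at and 1438781_at, both on MOE430B and both untested, ranged from 107 to 713 and from 74.4 to 935. The Tet3 probe set 1439324_at was tested, with 589, 276 and 483 in the CD49+ samples, against 231, 990.1 and 628 in the CD49- samples. Its groups overlapped, and the difference was -0.26 ± 0.52 (SE, n = 3 each, limma adjusted p = 1.00). On MOE430B, where the bound lay at 844 or more, these signals are upper limits.

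Ezh2, the PRC2 methyltransferase of dividing cells, was bright in all 4 MZ1468 samples and dimmer in both MZ1484 samples, with its lowest signal in the CD49- sample of MZ1484. Its only probe set, 1416544_at, had 5846, 21098 and 17792 in the CD49+ samples, against 107, 19547.5 and 20073 in the CD49- samples. All 6 signals exceeded the bound, CD49- sample 1 by a small margin, and the groups overlapped. The CD49+ minus CD49- difference was 1.80 ± 1.87 (SE, n = 3 each, limma adjusted p = 1.00), with 5.46 within MZ1484 and -0.032 within MZ1468. The interaction was 5.49 ± 0.52 (SE, limma adjusted p = 0.0254), of opposite sign to that of Dnmt1. The adjusted p was 0.319 without CD49- sample 2, 0.313 without CD49- sample 3, 0.0510 with no filter on low signals and 0.107 without a variance trend, so the call was lost in each. The word for E2F shown in capitals in the Ezh2 window is 1 of those that also stand in the Dnmt1 window.

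Ezh1, the alternative catalytic subunit, had the largest CD49 difference among the tested member probe sets in 1 probe set and a small one of opposite sign in another. Probe set 1449023_a_at had 5.81, 13.1 and 99.2 in the CD49+ samples, against 6508, 676 and 1140 in the CD49- samples. The groups did not overlap, and 1 of 3 CD49+ arrays but 3 of 3 CD49- arrays passed the bound. The CD49+ minus CD49- difference was -4.99 ± 1.08 (SE, n = 3 each, limma unadjusted p = 0.00210, adjusted p = 1.00). It was -7.64 within MZ1484 and -3.67 within MZ1468, lower in CD49+ in both, and the limma interaction of -3.97 ± 1.56 (SE) had an adjusted p of 0.242.

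Probe set 1418290_a_at of Ezh1, slightly brighter relative to background, had 154, 550.0 and 151 in the CD49+ samples, against 206, 148 and 103 in the CD49- samples. All 6 signals were above the bound, the groups overlapped, and the difference was 0.60 ± 0.71 (SE, n = 3 each, limma adjusted p = 1.00). The MOE430B probe sets 1429629_at and 1429630_at ranged from 57.0 to 529.8 and from 62.4 to 318 and never passed the bound. Thus the lower Ezh1 signal in CD49+ samples rests on 1 of 4 probe sets.

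Eed, the PRC2 subunit that reads the histone mark, was above the bound in all samples. Probe set 1448653_at had 3598, 2590.1 and 3875 in the CD49+ samples, against 964, 3826 and 4974 in the CD49- samples. The groups overlapped, with the lowest signal in the CD49- sample of MZ1484, and the difference was 0.32 ± 0.88 (SE, n = 3 each, limma adjusted p = 1.00). It was 1.87 within MZ1484 and -0.46 within MZ1468, and the limma interaction of 2.33 ± 0.89 (SE) had an adjusted p of 0.231. The other probe set, 1453830_at, ranged from 9.01 to 94.6 and never passed the bound.

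Bmi1, the PRC1 subunit, was above the bound in all samples by both probe sets, which disagreed in direction. Probe set 1417493_at had 9884, 6969 and 4160.0 in the CD49+ samples, against 671, 5565 and 1327 in the CD49- samples. The groups overlapped through CD49- sample 2 alone, and the difference was 1.93 ± 0.95 (SE, n = 3 each, limma unadjusted p = 0.0813, adjusted p = 1.00), with 3.83 within MZ1484 and 0.98 within MZ1468. Probe set 1448733_at had 849, 159 and 2029 in the CD49+ samples, against 1452.5, 3397 and 1001 in the CD49- samples. Here the CD49+ samples held both the lowest signal and the second highest, and the difference was -1.32 ± 1.23 (SE, n = 3 each, limma adjusted p = 1.00).

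Asxl1, the PR-DUB gene, was at or under the bound in both MZ1484 samples and above it in all MZ1468 samples. Probe set 1435077_at had 72.6, 286 and 759 in the CD49+ samples, against 35.4, 2226 and 876 in the CD49- samples. The CD49 groups overlapped, with a difference of -0.79 ± 1.50 (SE, n = 3 each, limma adjusted p = 1.00). Between submissions the signals did not overlap and were at least 6.75-fold lower in MZ1484, with a limma difference of -3.41 ± 0.89 on the log2 scale (SE, 2 against 4 samples, adjusted p = 0.0727). The untested probe set 1434561_at ranged from 5.32 to 498 and passed the bound in CD49- samples 2 and 3 only. By group means this put CD49+ at least 1.61-fold and MZ1484 at least 1.28-fold lower. Its CD49 groups overlapped, with 40.4 in CD49- sample 1 against 61.2 and 68.2 in CD49+ samples 2 and 3, all under the bound. On MOE430B, 1458380_at ranged from 144 to 588 and never passed the bound.

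**Figure D2:**
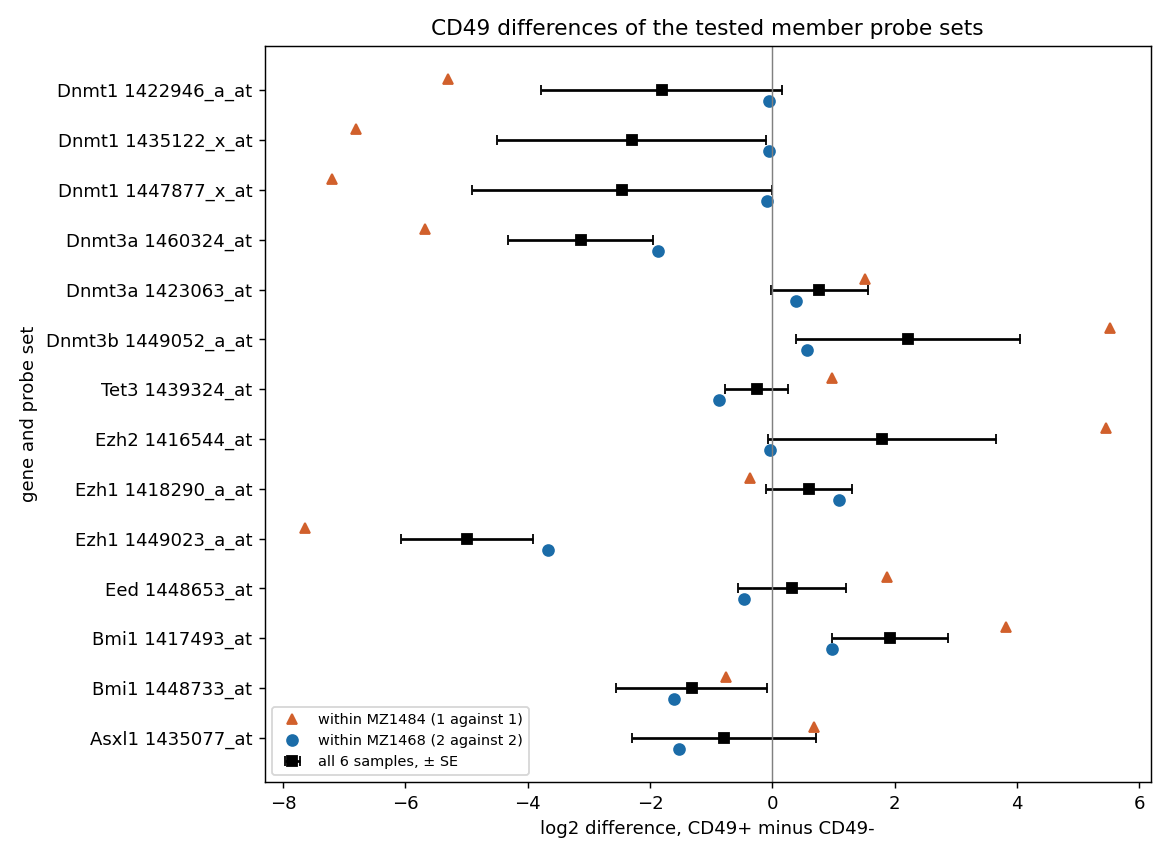
For each of the 14 tested probe sets the x axis gives the log2 difference of CD49+ minus CD49-, with squares and bars for all 6 samples ± SE of the limma fit, triangles for MZ1484 alone and circles for MZ1468 alone. Dnmt1 and Ezh2 lay near 0 in MZ1468 and past 5 log2 units, in opposite directions, in MZ1484, whereas Ezh1 1449023_a_at and Dnmt3a 1460324_at were lower in CD49+ in both submissions.

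Across the 14 tested member probe sets, limma called 0 CD49 differences, where 0% of all tested probe sets were called on MOE430A and 0% on MOE430B. At an unadjusted p under 0.05 there were 2 of 12 on MOE430A (2.4% of all tested probe sets) and 0 of 2 on MOE430B (3.68%). The 2 were Dnmt3a 1460324_at and Ezh1 1449023_a_at. The Ezh1 probe set passed the filter through its CD49- samples, with a mean log2 of 10.8 there and 5.78 in CD49+. Counts here that include it therefore depend on the group where it was bright. With submission as a block there were again 0 calls, with a lowest adjusted p of 0.857, and an unadjusted p under 0.05 for 2 of 12 on MOE430A (4.15% of all tested probe sets) and 0 of 2 on MOE430B (4.94%). The same 2 were the only members whose groups did not overlap with CD49+ lower, 2 of 12 on MOE430A (4.13% of all tested probe sets there) and 0 of 2 on MOE430B (4.06%). No member had CD49+ higher without overlap, where the shares over all tested probe sets were 2.79% on MOE430A and 5.2% on MOE430B. The difference was negative for 8 of the 14 and positive for 6, with a median of -0.52, beside medians over all tested probe sets of -0.071 on MOE430A and 0.031 on MOE430B. It had the same negative sign in both submissions for 6, the same positive sign for 3 and opposite signs for 5. Of the 4 genes with more than 1 tested probe set, 3 (Dnmt3a, Ezh1 and Bmi1) had probe sets of opposite sign.

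Marker levels of other cell types differed between the samples beside which these values stand. The summed MOE430A signal of the stem cell markers ranged from 15095 to 60837 in CD49+ and from 18359.6 to 37955 in CD49- samples, and 2 of the 8 tested markers were lower and 1 higher in CD49+ without overlap. Megakaryocyte markers summed to 708 to 9230.3 in CD49+ and 3872 to 7810 in CD49- samples, and 2 of their 4 tested genes were lower in CD49+ without overlap. Granulocyte and monocyte markers summed to 7978 to 40458 in CD49+ and 17187 to 32763 in CD49- samples, and B cell markers to 1806 to 8366 in CD49+ and 923 to 3819 in CD49- samples. T and NK cell markers summed to 3541 to 11603 in CD49+ and 2123 to 6218 in CD49- samples, and stromal and endothelial markers to 399 to 681 in CD49+ and 436 to 2222 in CD49- samples. The highest B cell, T and NK cell, and stromal sums came mostly from 1 gene each. Cd79b gave 8262 of 8366 in CD49+ sample 2, and Nkg7 gave 9318 of 11603 in CD49+ sample 1. Cxcl12 gave 1858 of 2222 in CD49- sample 1. Of 5 measured B cell markers 2 passed the bound on at least 1 array (Cd79b on 6, Cd79a on 3), and Ms4a1, Pax5 and Vpreb1 on none. Of 5 T and NK cell markers 4 did (Cd7, Lat and Nkg7 on 5 each, Cd3d on 2), and Cd3e on none. Of 6 stromal and endothelial markers 4 did (Col1a1 and Ibsp on 5 each, Cdh5 on 2, Cxcl12 on 1), and Pecam1 and Lepr on none. The part of such cells in the member values was not tested.

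Between submissions, MZ1484 against MZ1468, the members were mostly lower in MZ1484, and Dnmt1, Ezh2, Dnmt3b and Asxl1 were lower without overlap of the samples. The limma differences were -4.86 ± 1.13 for Dnmt1 1422946_a_at (adjusted p = 0.0550), -4.47 ± 1.16 for Ezh2 (adjusted p = 0.0712) and -4.06 ± 1.19 for Dnmt3b 1449052_a_at (adjusted p = 0.0955), each an SE over 2 against 4 samples on the log2 scale. None of the 14 passed the threshold of 0.05, while 4 did without CD49+ sample 1 and 4 without CD49- sample 1, fits in which 1 MZ1484 sample was left. Over all tested probe sets limma called 7.42% on MOE430A and 0.4% on MOE430B, against 0 of 12 and 0 of 2 members. An unadjusted p under 0.05 was reached by 5 of the 12 members on MOE430A (26.5% of all tested) and by 1 of the 2 on MOE430B (14.9%). MZ1484 was lower without overlap for 5 of the 12 members on MOE430A (23.6% of all tested) and for 1 of the 2 on MOE430B (14.5%), and higher without overlap for 0. The difference was negative for 11 of the 14 and positive for 3, with a median of -0.77, beside -0.43 over all tested probe sets on MOE430A and -0.056 on MOE430B. After median centring it was negative for 10 of the 14 (median -0.52), and after quantile normalization for 9 (median -0.43).

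The range between the 2 MZ1484 samples was wider than the range among the 4 MZ1468 samples for 9 of the 14 member probe sets and narrower for 5. It was wider for 8 of 12 members on MOE430A, beside 42.1% of all tested probe sets, and for 1 of 2 on MOE430B, beside 31.4%. For Ezh2 it was 5.46 log2 units in MZ1484, against 0.25 in MZ1468, and for Dnmt1 1422946_a_at it was 5.31 in MZ1484, against 0.085 in MZ1468. For Bmi1 1448733_at the order was the other way, with 0.76 in MZ1484 and 4.21 in MZ1468.

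The limma interaction of group and submission was called for 3 of the 12 members on MOE430A, the Dnmt1 probe sets 1422946_a_at and 1435122_x_at and Ezh2, where 2.17% of all tested probe sets were called, and for 0 of the 2 on MOE430B, where 0% were called. Member calls were 0 without CD49- sample 2, without CD49- sample 3 and without a variance trend, and 1 with no filter, while the calls over all probe sets on MOE430A ranged from 0 to 1953 with 1 MZ1468 sample left out. An unadjusted p under 0.05 was reached by 6 of the 12 members on MOE430A (20.5% of all tested probe sets) and by 1 of the 2 on MOE430B (11.6%). The 3 calls stand for 2 genes, since both Dnmt1 probe sets are annotated to 1 gene and were measured in the same samples. The signs were opposite, with CD49+ lower in MZ1484 for Dnmt1 and higher for Ezh2.

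Of 17 tested proliferation genes, limma called 8 lower and 0 higher in MZ1484, all 8 on MOE430A, and the median difference was -2.65. Over all tested probe sets 6.26% on MOE430A and 0.302% on MOE430B were called lower in MZ1484. The 8 became 6 with no filter, 6 without CD49+ sample 1, 6 without CD49+ sample 2, 10 without CD49- sample 1, and 0 without CD49+ sample 3, CD49- sample 2 or CD49- sample 3. Mki67, the marker of cycling cells, had 144, 17293 and 10529 in the CD49+ samples, against 95.2, 11003 and 11042 in the CD49- samples, and both MZ1484 signals were under the bound. Its submission difference was -6.40 ± 0.62 (SE, limma adjusted p = 0.0212), and Top2a, Birc5, Aurkb, Ccna2, Mcm4, Mcm5 and Rrm2 were the other 7. The summed MOE430A signal of the 16 proliferation genes on that design was 36862, 162114 and 117139 in the CD49+ samples, against 53439, 123919 and 108073 in the CD49- samples, lowest in the 2 MZ1484 samples. Between the CD49 groups 0 of the 17 were called, and the median difference was 0.094. Bub1b, a spindle checkpoint gene, differed by 2.91 ± 1.16 (SE, limma unadjusted p = 0.0394) and Rrm1, of ribonucleotide reductase, by -0.64 ± 0.38 (SE, limma unadjusted p = 0.137). After median centring or quantile normalization 6 of the 17 were called lower in MZ1484 and 0 higher. None of the 17 had a called interaction, and their part in the member values was not tested.

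Summed signals of 4 marker lists were higher in MZ1484, where a sum gives most weight to the brightest probe sets. The stem cell markers gave 60837 and 37955 in the MZ1484 samples (CD49+, then CD49-), against 15095 to 23080 in the MZ1468 samples, and 7 of the 8 tested were higher in MZ1484 with 0 called by limma. Granulocyte and monocyte markers gave 40458 and 32763 in MZ1484, against 7978 to 19918 in MZ1468, and megakaryocyte markers 9230.3 and 7809.7 in MZ1484, against 708 to 4823 in MZ1468. Lyz2 made up 31875 and 19728 of the granulocyte sums in MZ1484, and 3 of the 4 tested genes were higher in MZ1484. Pf4 made up 7419 and 5929 of the megakaryocyte sums in MZ1484, and 2 of the 4 tested genes were higher and 2 lower, with 0 called in either list. Stromal and endothelial markers gave 681 and 2222.5 in MZ1484, against 399 to 569 in MZ1468. All 3 of their tested genes were higher in MZ1484 with 0 called, and Cxcl12 made up 1858 of the 2222.5. The sums of these 4 lists did not overlap between the submissions, and their part in the member values was not tested.

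Among 5 tested partners of Dnmt1 in copying methylation, 2 were called lower in MZ1484, 0 were called higher, and the median difference was -3.01. Uhrf1, which brings Dnmt1 to hemimethylated DNA, had 7.71, 5328 and 1907 in the CD49+ samples, against 7.50, 1114 and 3673 in the CD49- samples. Both MZ1484 signals were far under the bound and all MZ1468 signals above it, and the submission difference was -6.22 ± 0.89 (SE, limma adjusted p = 0.0239). Dmap1, a protein that binds Dnmt1, differed by -3.01 ± 0.65 (SE, limma adjusted p = 0.0471). With no filter the adjusted p was 0.0420 for Uhrf1 and 0.105 for Dmap1. With 1 sample left out Uhrf1 was called without CD49+ sample 2 or CD49- sample 1 and in no other case, and Dmap1 in none, and 1 of the 5 was called lower after median centring or quantile normalization. The others did not pass, with -3.53 ± 1.23 for Hells (adjusted p = 0.274), -1.63 ± 0.69 for Usp7 (adjusted p = 0.199) and 0.15 ± 0.96 for Uhrf2 (adjusted p = 0.961), each with its SE in the limma fit. Between the CD49 groups 0 of the 5 were called, with values of -1.50 ± 1.71 (SE) for Hells, a chromatin remodeller, and 0.76 ± 1.23 (SE) for Dmap1.

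The DNA demethylation partners and the methyl-CpG binding proteins had no call in either comparison. Of the first list 6 genes were tested, with a median CD49 difference of 0.054 and a median submission difference of 0.51. The repair enzyme Smug1 was -2.17 ± 0.99 and Idh1, an isocitrate dehydrogenase, -2.20 ± 1.40 by CD49 (SE), and its relative Idh2 was -2.20 ± 0.86 by submission (SE). Of the methyl-CpG binders 6 were tested, with medians of -0.78 by CD49 and -0.17 by submission. Zbtb4 had 1517, 746 and 373 in the CD49+ samples, against 10060, 3943 and 5973 in the CD49- samples on MOE430B. These groups did not overlap, and 1 of 3 CD49+ arrays but 3 of 3 CD49- arrays passed the bound, so the size of the difference rests on signals under it. The difference was -2.80 ± 0.71 (SE, limma unadjusted p = 0.00620), which did not pass after adjustment. Mbd3, of a deacetylase complex, differed by -3.69 ± 2.27 by CD49 (SE), and Zbtb33 by -2.50 ± 0.86 by submission (SE).

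The other subunits of PRC2 and PRC1 also had no call in either comparison. Of PRC2, 8 genes were tested, with medians of 0.13 by CD49 and -0.62 by submission. The histone binder Rbbp4 was -0.50 ± 0.28 by CD49 (SE, groups not overlapping), and the accessory subunit Mtf2 was -1.83 ± 1.61 by CD49 and -3.25 ± 1.11 by submission (SE), while Aebp2 was 1.20 ± 0.50 by submission (SE). Of PRC1, 18 genes were tested, with medians of -0.066 by CD49 and -0.48 by submission, the second of which turned to 0.12 after quantile normalization. The ubiquitin ligase Ring1 was -2.76 ± 1.36 and Phc3 3.05 ± 1.87 by CD49 (SE), and Bcor was -2.72 ± 0.72 and L3mbtl2 -3.07 ± 0.91 by submission (SE). The Phc3 value rests on 1 sample, since its MOE430B signal was 165978 in CD49+ sample 1 and 2417 and 2501 in CD49+ samples 2 and 3, against 151, 1676 and 3572 in the CD49- samples.

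Among the PR-DUB partners and histone demethylases, 1 of 7 tested genes was called lower in MZ1484 and 0 higher, with a median of -1.60. This was Hcfc1, a host cell factor bound by the PR-DUB enzyme, at -3.52 ± 0.63 (SE, limma adjusted p = 0.0315), and Foxk2 followed at -3.50 ± 0.94 (SE, adjusted p = 0.0777). The Hcfc1 call was lost with no filter (adjusted p = 0.0726), and with 1 sample left out it was made without CD49+ sample 2 and in no other case. By CD49 group 0 of the 7 were called and the median was -0.19, with -1.74 ± 0.93 for Asxl2, a relative of Asxl1, and -1.46 ± 1.13 for the deubiquitinase gene Bap1 (SE). Of a list of 6 loci that Polycomb is known to repress in some blood cells, only Hoxa9 passed the bound on all 6 arrays. Its signals were 1371 to 9902. Ebf1 and Hmga2 passed the bound on 3 arrays each, Cdkn2b on 1, and Pax5 and Cdkn2a on none. Cdkn2a, an inhibitor of cell division, had signals of 71.9, 84.8 and 39.6 in the CD49+ samples, against 60.4, 54.1 and 23.1 in the CD49- samples. Hoxa9 and Pax5 were the 2 tested, and their CD49 differences were -0.26 ± 0.82 and 0.50 ± 0.64 (SE), with no call.

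**Figure D3:**
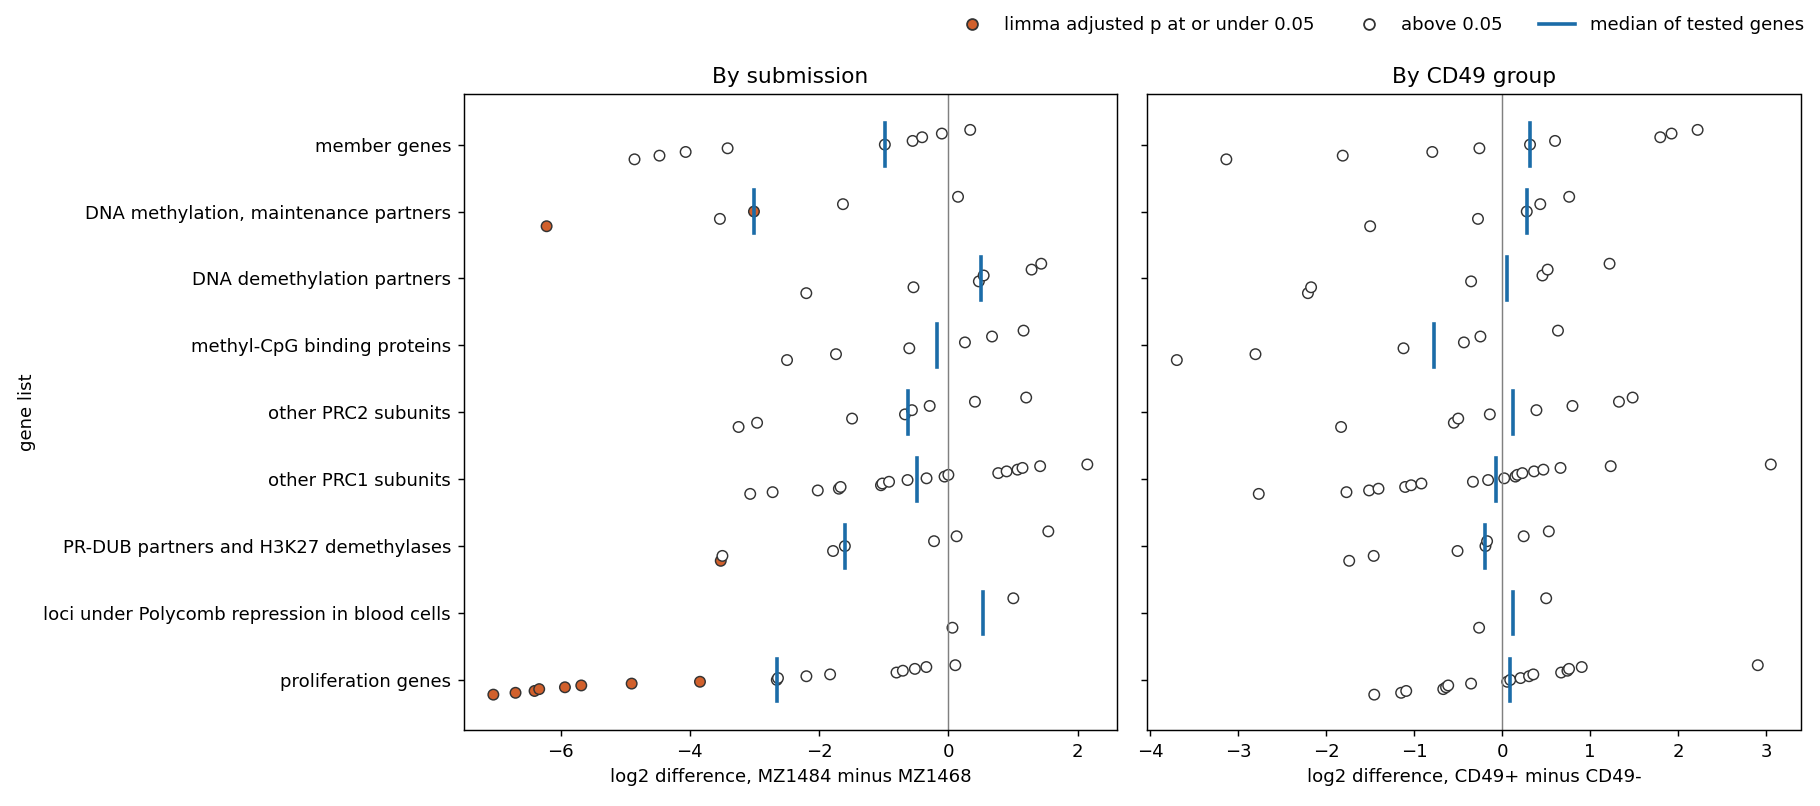
Each row is a gene list and each point the log2 difference of 1 tested gene, by submission (left, MZ1484 minus MZ1468) and by CD49 group (right, CD49+ minus CD49-), with filled points at a limma adjusted p of 0.05 or under and bars for the median of the tested genes. By submission 8 proliferation genes, 2 maintenance partners and 1 PR-DUB partner were called, all lower in MZ1484, and by CD49 group no gene was.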

How the data were processed

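Expression was measured on 12 Affymetrix arrays, 6 samples on MOE430A and on MOE430B. The deposited values were linear intensity signals, with a value for each probe set, and came from the authors' MAS5 run, per the submitters' processing notes. The sources used here give no version of it. The deposited scanner experiment files, in no unit, gave only the array design, sample name and scan day, per the file headers. Gene symbols came from the platform annotation, and of the probe sets with 1 symbol 20351 of 20380 on MOE430A and 14486 of 14661 on MOE430B matched RefSeq (GRCm38.p6). A further 691 and 245 had several symbols, 1555 and 7605 had none, and these were not named.

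The analysis used log2(signal + pseudocount). The pseudocount, the 25th percentile of a design's signals, was 27.0 and 140.0, which understates differences of dim probe sets. Probe sets at or above the median of the mean log2 values were tested, 11313 on MOE430A and 11256 on MOE430B. Each design was tested alone with limma 3.58.1 (eBayes with trend; R 4.3.3), two-sided, with Benjamini-Hochberg adjustment and a threshold of 0.05. The fits were CD49 group alone, submission with CD49 group as a term, and their interaction. The code for the CD49 difference, alone and with submission as a block, was tested on simulated data. The submission and interaction tests were not. Precision is limited by the number of arrays, which carry no read depth. A fold written "at least" sets the brighter group's mean log2 signal against the higher of bound and own signal in the dimmer group. Full values are given for each gene's probe set with the highest mean log2 signal over the bound and for any other above the bound on 3 or more arrays. From each list the genes with the 2 smallest unadjusted p in either comparison and all called genes are named, by the same choice of probe set. Some listed genes are not reported here. The members, gene lists and tests were chosen with earlier results of these data known. Alternatives were other pseudocounts, filters, scalings, variance models, each sample left out, submission as a block and each submission alone.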

Additional observations from a re-analysis of the deposited data

Results flagged for a closer look

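In 3 probe sets the CD49+ minus CD49- difference was not the same in the submissions by the limma interaction test, MZ1484 minus MZ1468 on the log2 scale. It was -5.25 for Dnmt1 1422946_a_at, from -5.31 in MZ1484 against -0.061 in MZ1468. For Dnmt1 1435122_x_at it was -6.76, and for Ezh2 1416544_at it was 5.49. In MZ1484, Dnmt1 was under the background bound in the CD49+ sample and Ezh2 near it in the CD49- sample, and the 2 genes were bright in the other sample of that submission. With 1 MZ1484 sample in each group, the 3 values rest on 2 arrays and have no replicate in that submission.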

How the results depend on the processing

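No CD49 difference was called on either design under any alternative run, and Ezh1 1449023_a_at and Dnmt3a 1460324_at were lower in CD49+ under all of those in which they were tested, with lowest adjusted p of 0.646 and 0.857. With MZ1468 alone the CD49 difference turned to -0.46 for Eed and -0.032 for Ezh2, and in MZ1484 alone it was 0.67 for Asxl1 1435077_at, -0.37 for Ezh1 1418290_a_at and 0.97 for Tet3. Leaving out 1 sample gave ranges of -3.07 to 0.68 for Dnmt1 1422946_a_at, -3.79 to 0.56 for 1435122_x_at and -3.99 to 0.56 for 1447877_x_at (positive without CD49+ sample 1), -0.40 to 0.77 for Eed and -0.61 to 3.01 for Ezh2 (negative without CD49- sample 1), and -2.30 to 0.29 for Asxl1 1435077_at and -0.70 to 0.10 for Tet3 (positive without CD49- sample 2). Submission as a block changed no CD49 call.

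For submission, the 839 calls on MOE430A became 559 with the pseudocount at the median signal and 319 with no filter, and with 1 sample left out they ranged from 0 to 1371, with 0 without CD49+ sample 3, CD49- sample 2 or CD49- sample 3. Members called there were 2 among the top 25% of signals and 0 to 4 with 1 sample left out. The 45 calls on MOE430B (34 lower and 11 higher in MZ1484) became 97 with a pseudocount of 16, 12 with it at the median, 149 among the top 25%, 18 after median centring (9 lower and 9 higher), 176 without a variance trend, 148 without the CD49 term and 0 to 28 with 1 sample left out, and members called there 0 to 1. Median centring and quantile normalization moved the median of all MOE430A probe sets by submission to -0.16 and -0.010, against -0.43 as deposited. The sign turned for Ezh1 1418290_a_at under both (0.16 and 0.66) and for Dnmt3a 1423063_at under quantile normalization (0.73). With 1 sample left out the submission difference ranged from -0.72 to 0.76 for Bmi1 1448733_at, -1.98 to 0.87 for Bmi1 1417493_at, -0.83 to 0.63 for Ezh1 1418290_a_at, -1.12 to 2.85 for Ezh1 1449023_a_at, -0.83 to 0.30 for Dnmt3a 1423063_at, -1.57 to 2.24 for Dnmt3a 1460324_at, -2.15 to 0.18 for Eed and -1.33 to 0.52 for Tet3.

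Alternatives for the interaction were chosen after seeing the data. Its 245 calls on MOE430A became 31 with no filter, 734 among the top 25%, 86 after quantile normalization, 0 without a variance trend and 0 to 1953 with 1 MZ1468 sample left out, and the 3 member calls became 1, 4, 3, 0 and 0 to 4. They were 0 without CD49- sample 2 or 3, and adjusted p values ranged from 0.00509 to 0.321 over the 3 probe sets. The sign of the 3 was the same throughout, while Bmi1 1448733_at ranged from -0.89 to 2.58. The cause of these changes was not tested. Signals under the bound have no order, which limits Tet2, Tet3 and the dim probe sets of Dnmt3a, Ezh1 and Asxl1. The same limit holds for the size of differences that rest on such signals. These include Dnmt1 in CD49+ sample 1, Dnmt3b 1449052_a_at in CD49- sample 1, and Ezh1 1449023_a_at and Dnmt3a 1460324_at in CD49+ samples 1 and 2.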
